A study of Homo sapiens with 4 samples.

Results

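N6-methyladenosine (m6A) sites were mapped in poly(A)-selected RNA from C643, an established anaplastic thyroid carcinoma line, and the sites described here are those at DRACG, in which a guanine stands at +2. The positions count from the modified A at 0, with D (A, G or T) at -2, R (A or G) at -1, C at +1 and G at +2. They were chosen by the GRCh38 sequence on the strand of each site alone, and 993 of the 18789 listed sites met the rule (5.29%, 4.97 to 5.61). They made up 46.7% of the 2125 sites outside the DRACH motif, and 16664 sites lay at DRACH, where H is A, C or T. DRACG therefore differs from DRACH at +2 alone, and every DRACG site holds a CpG dinucleotide formed by its bases at +1 and +2.

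The cells were untreated wild-type C643 cells in 1 group, with 3 biological replicates and 4 libraries, since replicate 1 was split into 2 technical ones. In miCLIP2, RNA fragments are crosslinked with ultraviolet light to an anti-m6A antibody, and the cDNA end marks the crosslinked position. The classifier m6Aboost, trained by the authors on mouse embryonic stem cells with and without Mettl3, then gave each peak at an A a prediction score between 0 and 1, and sites called modified were listed. The replicates were pooled in 1 list, so spread between replicates and depth per site are unknown here, and no METTL3-depleted C643 sample was analysed here. Intervals are 95% intervals over sites or motifs and cover no variation between cultures. The 21-nt sequence and the annotated region were inputs of the classifier, so shares of motifs, scores and regions describe what was listed.

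m6A is laid down on nascent mRNA by the METTL3 and METTL14 methyltransferase complex, which prefers DRACH, and it is read by YTH-domain proteins that act on splicing, export, translation and decay. Methylation is known to gather in long internal exons and near stop codons and to be scarce close to exon junctions, where exon junction complexes sit. A guanine at +2 is disfavoured by the consensus. CpG is rare in most of the human genome, where its cytosine is often methylated and mutates, and is kept at higher density in many coding sequences and at promoters.

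The highest-scoring site of each of the 6 DRACG pentamers shows what the motif looks like in its transcript. The windows are 21 nt of GRCh38, 5′ to 3′ on the strand of the site, and the capitals mark the pentamer from -2 to +2.
SIPA1L3, chr19:38207308-38207328, plus strand: accccactGGACGctggttct
NDST1, chr5:150553347-150553367, plus strand: gccagactGAACGtttgtgaa
PLXNA1, chr3:127035308-127035328, plus strand: aattttaaAGACGatttgaac
MYO9B, chr19:17212422-17212442, plus strand: ctcaagagTGACGtgaggtgg
DPYSL3, chr5:147393931-147393951, minus strand: gcgaatccAAACGgttgtgat
FAM32A, chr19:16191763-16191783, plus strand: taccttacGGACGtctcaggg
FAM32A, chr19:16191265-16191285, plus strand: gttgcatgTAACGctctgagg
All of these sites lay in 3' UTRs. SIPA1L3, of the SIPA1 family of Rap GTPase-activating proteins, held the GGACG site of score 0.979. NDST1, an enzyme that modifies heparan sulfate, held the GAACG site of 0.919. PLXNA1, a semaphorin receptor, held the AGACG site of 0.862. The best TGACG site, in the myosin gene MYO9B, scored 0.832, and the best AAACG site, in DPYSL3, scored 0.801. The best TAACG site scored 0.645, in FAM32A, and the second FAM32A window is that site. The first FAM32A window is the GGACG site of score 0.722 in the same 3' UTR, shown because FAM32A is a gene with DRACG sites and no DRACH site.

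Other sites among the 10 highest scores are printed because their flanks are taken up below.
CCND1, chr11:69654200-69654220, plus strand: gccttgagGGACGctttgtct
EGLN2, chr19:40800795-40800815, plus strand: cctcttcgGGACGgttttggc
WDR6, chr3:49012418-49012438, plus strand: gacaccagGGACGtgggatcc
CAVIN1, chr17:42404188-42404208, minus strand: tactagaaGGACGtgaaagca
SNRNP25, chr16:57229-57249, plus strand: cacagaaaGGACGttgtggtg
FAM20C, chr7:200380-200400, plus strand: cctgcaaaGGACGatttcaag
MLLT1, chr19:6210831-6210851, minus strand: cacctgatGGACGtgctgggc
ACTR1A, chr10:102480684-102480704, minus strand: cccagaaaGGACGatgaacta
The CCND1 site (score 0.967) lay in the 3' UTR of cyclin D1 mRNA, 2930 nt past the first base of the stop codon. The site in EGLN2, a prolyl hydroxylase that acts on hypoxia-inducible factors, lay in the coding sequence (CDS) of exon 1 of 5 and scored 0.955. The WDR6 site (0.949) was coding as well, in exon 2 of 6. The sites of CAVIN1, a coat protein of caveolae (0.949), SNRNP25, of the minor spliceosome (0.940), MLLT1, of a transcription elongation complex (0.938), and ACTR1A, of dynactin (0.937), were in 3' UTRs. The site of FAM20C, a secretory-pathway kinase (0.939), lay in an intron of the chosen transcript.

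The DRACG pentamers differed widely by the bases in front of the A. GGACG had 735 sites (74.0% of the 993), AGACG 108, GAACG 104, TGACG 30, AAACG 12 and TAACG 4. These counts were set against the motifs present in the exons of the 3713 host transcripts, one transcript for each gene with a listed exonic site. Of 10026 GGACG motifs 6.93% were listed (6.45 to 7.45), of 5019 GAACG motifs 1.99% (1.64 to 2.42) and of 6649 AGACG motifs 1.47% (1.21 to 1.79). The remaining pentamers were listed at 0.529% (TGACG), 0.347% (AAACG) and 0.239% (TAACG). The rate of GGACG was above that of each of the other 5 pentamers, with intervals that did not overlap, while the intervals of GAACG and AGACG overlapped.

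Across all 6 pentamers, 937 of 31888 DRACG motifs were listed, or 2.94%, against 7.29% of 216697 DRACH motifs in the same transcripts. Within transcripts the odds of being listed were 0.318 times as high for DRACG as for DRACH (0.296 to 0.340, Cochran-Mantel-Haenszel estimate with the host transcript as stratum). The gap differed by the base that replaced the guanine. Cytosine at +2 came closest, with 3.27% of DRACC motifs listed and an odds ratio of guanine against cytosine of 0.821 (0.758 to 0.889), or 0.719 (0.659 to 0.784) with the bases at -2 and -1 matched as well. Against adenine the odds ratio was 0.453 (0.419 to 0.489), and against thymine (uracil in the RNA) it was 0.122 (0.114 to 0.132). GGACG was listed less often than GGACC (6.93% against 9.02%, odds ratio 0.701, 0.633 to 0.777), and AGACG less often than AGACC (1.47% against 2.10%, 0.653, 0.508 to 0.838). For GAACG against GAACC the odds ratio was 0.876 with an interval of 0.672 to 1.14, and for TGACG against TGACC it was 0.699 with an interval of 0.445 to 1.10, so neither pair was told apart. AAACG was listed at 0.347% and AAACC at 0.236%, with an odds ratio of 1.74 (0.755 to 4.01).

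**Figure D1:**
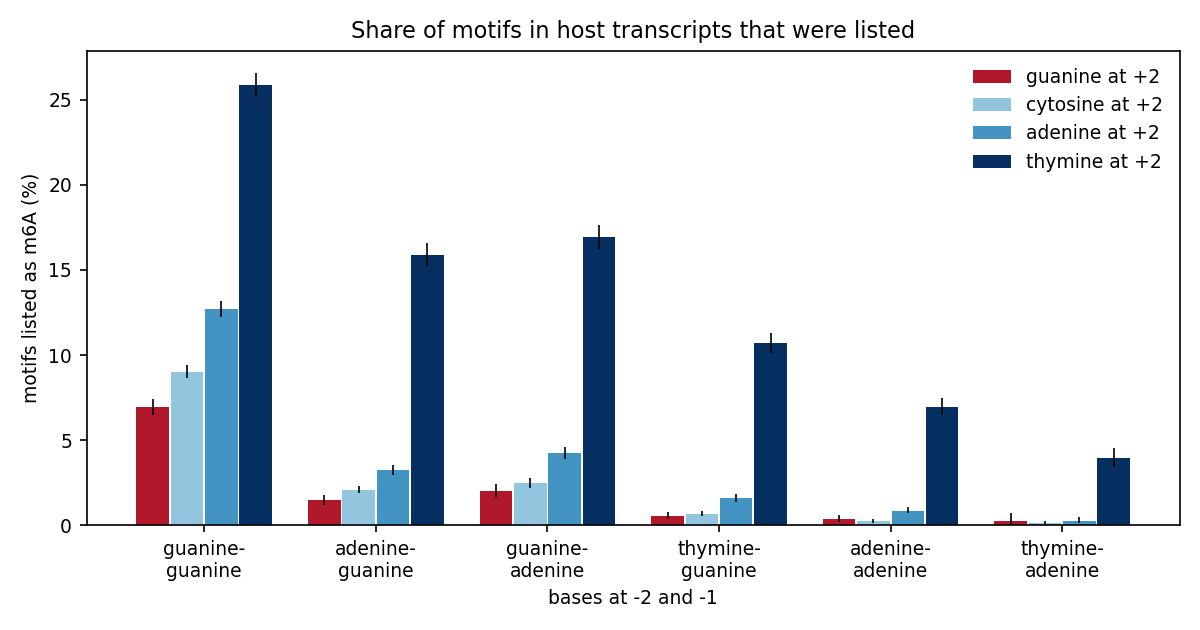
Share of motifs in host transcripts that were listed (percent, vertical axis), by the bases at -2 and -1 (horizontal axis) and the base at +2 (bar colour), with 95% Wilson intervals. Guanine at +2 stood at 6.93% after guanine-guanine, below cytosine at 9.02%, adenine at 12.7% and thymine at 25.8%, and thymine was the highest bar for every upstream pair.

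The prediction scores of DRACG sites were lower than those of DRACH sites. The lowest was 0.5003, the median 0.699 (quartiles 0.601 and 0.795) and the highest 0.979, against a median of 0.769 (0.660 and 0.855) at DRACH sites. A score of at least 0.7 was given to 496 of the 993 DRACG sites (49.95%), against 62.9% of all listed sites and 67.0% of DRACH sites. A score of at least 0.9 was given to 38 DRACG sites (3.83%), against 12.2% of DRACH sites. Within transcripts the odds of a score of at least 0.7 were 0.512 times those of DRACH sites (0.437 to 0.599). The gap was also present against the same upstream bases with the bases of H pooled. The median was 0.716 for GGACG and 0.786 for GGACH, and 0.672 for GAACG and 0.792 for GAACH. Against single bases at +2 the gap was not general. The AGACG median of 0.674 was above 0.665 with adenine and 0.637 with cytosine, and below 0.774 with thymine. The GAACG median was close to 0.677 with adenine, and below 0.707 with cytosine and 0.843 with thymine. The GGACG median was below that of each other base, the nearest being cytosine at 0.734. The bases were inputs of the score, so these values describe the list, and the odds ratio is given without its p. The 3 lowest scores were 0.5003 in TOR4A, a torsin gene, 0.5003 in DDX54, an RNA helicase gene, and 0.501 in POLR2E, a subunit gene shared by RNA polymerases, and 102 members lay under 0.55.

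**Figure D2:**
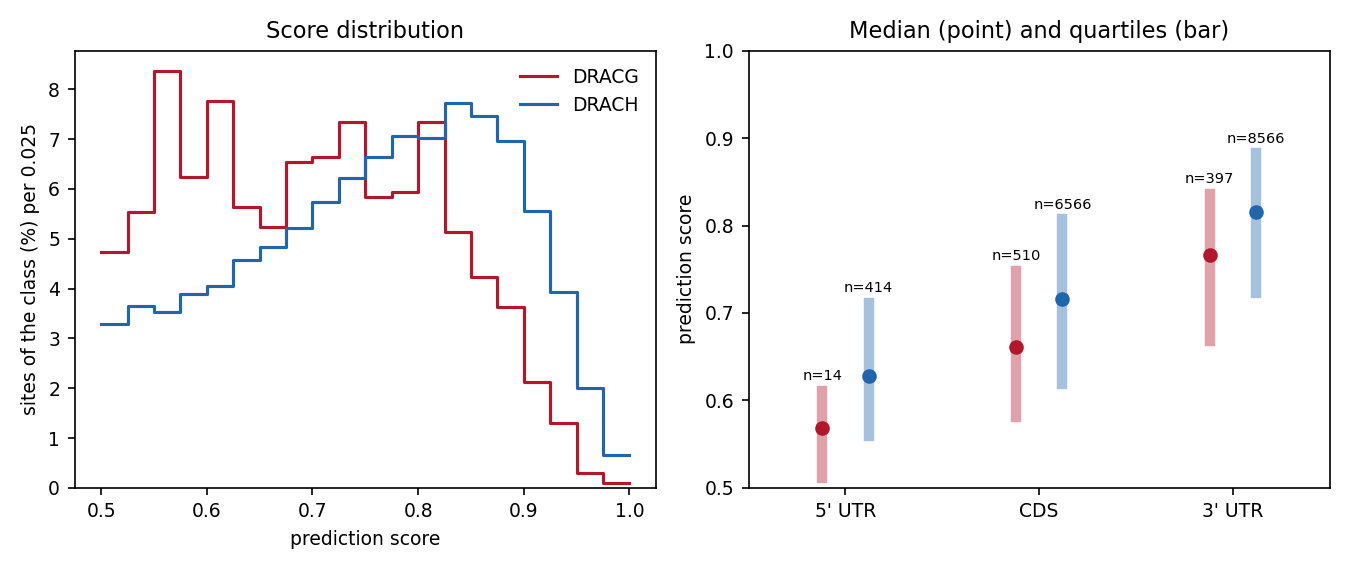
Left, prediction scores of the 993 DRACG and 16664 DRACH sites as percent of each class in 20 equal steps between 0.5 and 1. Right, the median (point) and quartiles (bar) of the score by transcript region, with the number of sites above each bar; DRACG medians were 0.569 in 5' UTRs, 0.661 in CDS and 0.767 in 3' UTRs, each below DRACH.

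DRACG sites were mainly coding. The CDS held 510 of them (51.4%, 48.3 to 54.5), the 3' UTR 397 (39.98%, 36.98 to 43.1) and the 5' UTR 14 (1.41%). Another 17 lay in exons of noncoding transcripts, 44 in exons of transcripts that were not chosen as hosts and 9 in introns, and 2 had no host gene. Among DRACH sites the order was the opposite, with 39.4% in CDS and 51.4% in 3' UTRs. Within transcripts the odds of a 3' UTR rather than a coding position were 0.630 times those of DRACH sites (0.521 to 0.763, adjusted chi-square p = 3.9e-06). The CDS share of exonic DRACG sites was 54.3% in the full list and 43.5% at a score of at least 0.7, where 55.9% were in 3' UTRs, so the coding majority held for the full list and not for its higher-scoring members. Without GGACG and GGACH the odds ratio was 0.823 and no longer past the threshold (adjusted chi-square p = 0.514).

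Between CDS and 3' UTR the supply of motifs ran the same way, and in 5' UTRs it did not. DRACG was 16.2% of the DRACN motifs in CDS, 7.74% of those in 3' UTRs and 19.5% of those in 5' UTRs, and it was 7.20%, 4.43% and 3.27% of the DRACN sites there. Per motif, DRACG was listed more often in 3' UTRs (5.00% of 7942) than in CDS (2.52% of 20160), and least in 5' UTRs (0.443% of 3160). Within transcripts the odds ratio of 3' UTR against CDS was 2.38 (2.01 to 2.82) for DRACG motifs and 1.82 (1.75 to 1.89) for DRACH motifs, and they differed (adjusted p = 0.00351, n = 906 listed DRACG sites). Of these sites 731 lay in informative transcripts, those in which both listing and region varied. With motifs under 100 nt from an exon junction left out, both estimates were below 1, at 0.826 (0.669 to 1.02) for DRACG and 0.535 (0.509 to 0.563) for DRACH, and they again differed (adjusted p = 0.000241, n = 781 listed DRACG sites, 496 in informative transcripts). The interval for DRACG included 1, so no direction was established for it there, and the ratio of the DRACG to the DRACH odds ratio was above 1 in both settings (1.31 and 1.54).

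The 14 sites in 5' UTRs scored between 0.503 and 0.665, and none reached 0.7. For DRACH the listing rate there was 3.17%. The odds of a 5' UTR position were 0.545 times those of DRACH sites of the same transcripts, with an interval of 0.277 to 1.07 (adjusted chi-square p = 0.128). With the bases at -2 and -1 matched it was 0.397 (adjusted chi-square p = 0.0225).

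DRACG sites gathered around stop codons. Of 918 sites in coding transcripts 266 lay within 200 nt of the first base of the stop codon (29.0%), against 11.6% of unlisted DRACG motifs, and the odds ratio within transcripts was 3.06 (2.56 to 3.66, adjusted chi-square p = 9.2e-39). In bins of 100 nt the rate was 1.38% at the bin that starts 1000 nt upstream, 5.53% in the last 100 nt before the stop codon and 11.1% (9.05 to 13.5) in the first 100 nt from it. It was 10.9% in the bin from 200 nt and 9.68% in the bin from 300 nt, and 5.78% in the next. DRACH sites were within 200 nt in 33.5%, and the odds ratio of DRACG against DRACH sites was 0.958 (0.798 to 1.15, adjusted chi-square p = 0.720). Gathering at the stop codon was therefore not told apart between the classes.

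Coding DRACG sites avoided exon junctions. In spliced transcripts 120 of 477 coding sites (25.2%) lay under 100 nt from a junction, where 76.6% of unlisted coding DRACG motifs lay (odds ratio 0.124, 0.0885 to 0.175, adjusted chi-square p = 1.2e-45). The rate rose from 0.650% of motifs under 25 nt from a junction to 1.11% between 50 and 99 nt and 9.86% between 200 and 399 nt. For DRACH motifs the odds ratio against unlisted motifs was 0.123, and it was not told apart from that of DRACG (adjusted p = 0.976, n = 477 DRACG sites, 324 in informative transcripts). Compared with the 30.6% of coding DRACH sites under 100 nt, DRACG sites were farther away within transcripts (odds ratio 0.512, 0.340 to 0.770, adjusted chi-square p = 0.00259), but this comparison rested on 191 DRACG sites in informative transcripts and missed the threshold at a score of at least 0.7 (0.495, adjusted chi-square p = 0.128), with a window of 50 nt (0.606, 0.0637) and without GGACG (0.520, 0.306). Of the 510 coding sites 239 were in a last exon of a spliced transcript, 191 in an internal exon, 48 in a first exon and 32 in single-exon transcripts. Shares of unlisted motifs and of DRACH sites by exon type were not computed.

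**Figure D3:**
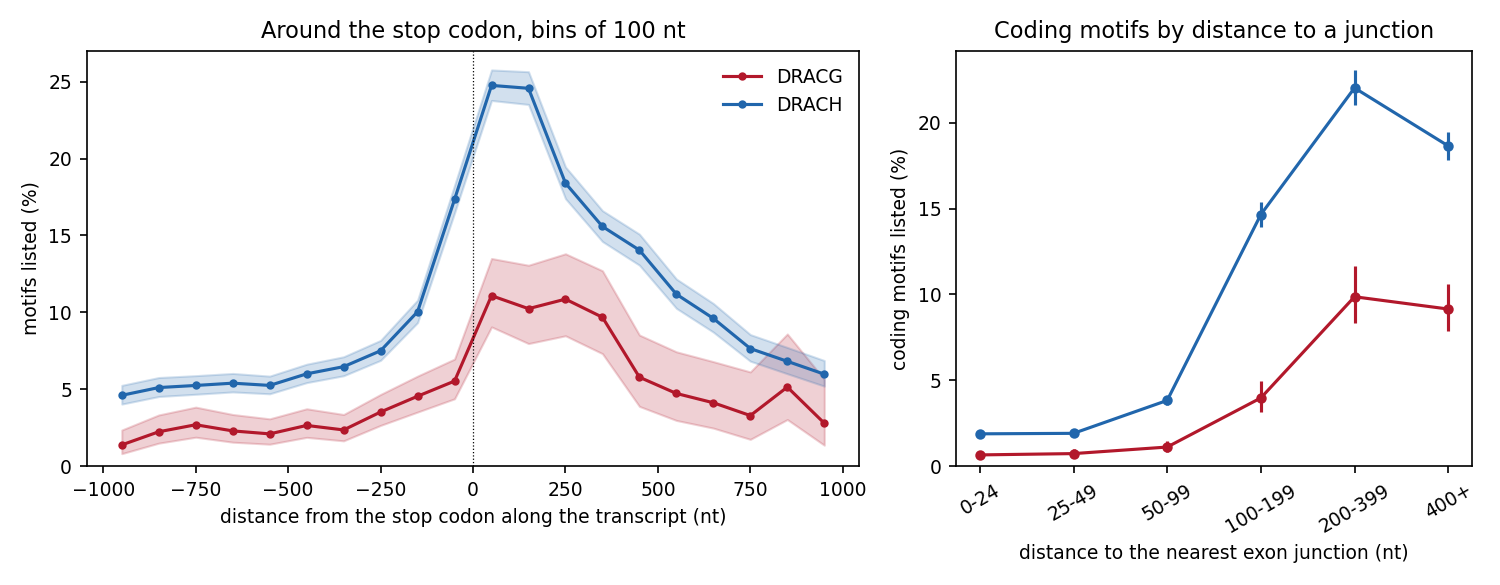
Left, share of DRACG and DRACH motifs listed in bins of 100 nt around the first base of the stop codon (bin centres on the horizontal axis, bands are 95% Wilson intervals). Right, share of coding motifs of spliced transcripts listed by distance to the nearest exon junction, with 95% Wilson intervals; DRACG rose from 0.650% nearest to the junction to 9.86% at 200 to 399 nt.

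In coding sequence most DRACG sites fell in one reading frame, which 57.1% of unlisted coding DRACG motifs and 57.7% of coding DRACH sites shared. The A was the middle base of its codon at 351 of 505 sites (69.5%), where R, A and C read GAC (aspartate) or AAC (asparagine), the first base at 86 (ACG, threonine) and the last at 68. Against unlisted coding motifs the middle position had an odds ratio of 1.74 (adjusted chi-square p = 2.4e-06) and the first position 0.489 (adjusted chi-square p = 7.5e-07). Both turned direction when only GGACG was used (0.775 and 1.26) and when the bases at -2 and -1 were matched (0.895 and 1.06), with no adjusted p past the threshold. GGACG motifs were listed at 6.37%, 5.75% and 6.73% with the A at the first, middle and last codon position, so a frame preference was not seen within this pentamer.

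Bases just outside the pentamer differed between listed and unlisted DRACG motifs. Thymine stood at +4 in 42.2% of 936 listed DRACG sites with a full window and in 17.6% of unlisted DRACG motifs. The odds ratio within transcripts was 3.98 (3.39 to 4.66), and it was 4.82 with the pentamer matched and 4.07 with the region matched. The same base was less set apart at DRACH (30.98% against 21.8%, odds ratio 1.79, 1.72 to 1.85), and the ratio of both odds ratios was 2.23 (adjusted p = 4.0e-21, n = 936 DRACG sites, 808 in informative transcripts). Cytosine at +4 was scarce, at 14.6% against 29.8% of unlisted motifs (odds ratio 0.377, 0.310 to 0.458). It was also less frequent at listed DRACH motifs, at 22.9% against 29.5% (odds ratio 0.640, 0.615 to 0.666). Thymine was also more frequent at -3 (34.9% against 19.6%, 2.36, 2.02 to 2.76). At -3 the odds ratio was 1.62 (1.34 to 1.96) with the pentamer matched and 1.51 for GGACG alone, and 11.1% of AGACG and 16.7% of TGACG sites had thymine there. Thymine was more frequent at +3 (1.72, 1.46 to 2.04), as was adenine at -4 (34.9% against 21.8%, 2.32, 1.97 to 2.72). Adenine at -4 was also more frequent at listed DRACH motifs (32.3% against 23.8%, 1.70, 1.64 to 1.77). Cytosine at -3 (0.457), guanine at -3 (0.659) and guanine at +3 (0.605) were less frequent at listed sites. For guanine at -3 the call was lost without GGACG (0.873, adjusted chi-square p = 0.524) and with the bases at -2 and -1 matched (0.824, adjusted chi-square p = 0.0892). Unlisted DRACH motifs were not compared at -3 and +3. The tests at +4 and -4 were chosen after seeing the base composition, and all of these positions lay within the window that the classifier read. These differences, and the p for the difference at +4, therefore describe what was listed.

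Of the 10 highest-scoring sites 6 had thymine at +4 and 7 had adenine at -4, all of them in windows printed above. The site in ZFP41 on chromosome 8 (score 0.959) is among the 10, but its window is not shown, and it had neither base. Thymine at +4 was found in 34.8% of the 247 members with a score under 0.6, in 34.0% of the 250 from 0.6 to 0.7, in 41.8% of the 256 from 0.7 to 0.8 and in 60.0% (53.7 to 66.0) of the 240 with 0.8 or more. It was found in 36.2% of GGACG sites (32.8 to 39.7), in 54.8% of GAACG sites (45.2 to 64.0), in 62.0% of AGACG sites (52.6 to 70.6) and in 20 of 30 TGACG sites. Among listed sites, the pentamers listed less often per motif carried thymine at +4 more often than GGACG, with intervals apart for GAACG and AGACG. The share among unlisted motifs was not computed for each pentamer. A difference in the surroundings of the pentamers was therefore not told apart from one of their listed sites.

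**Figure D4:**
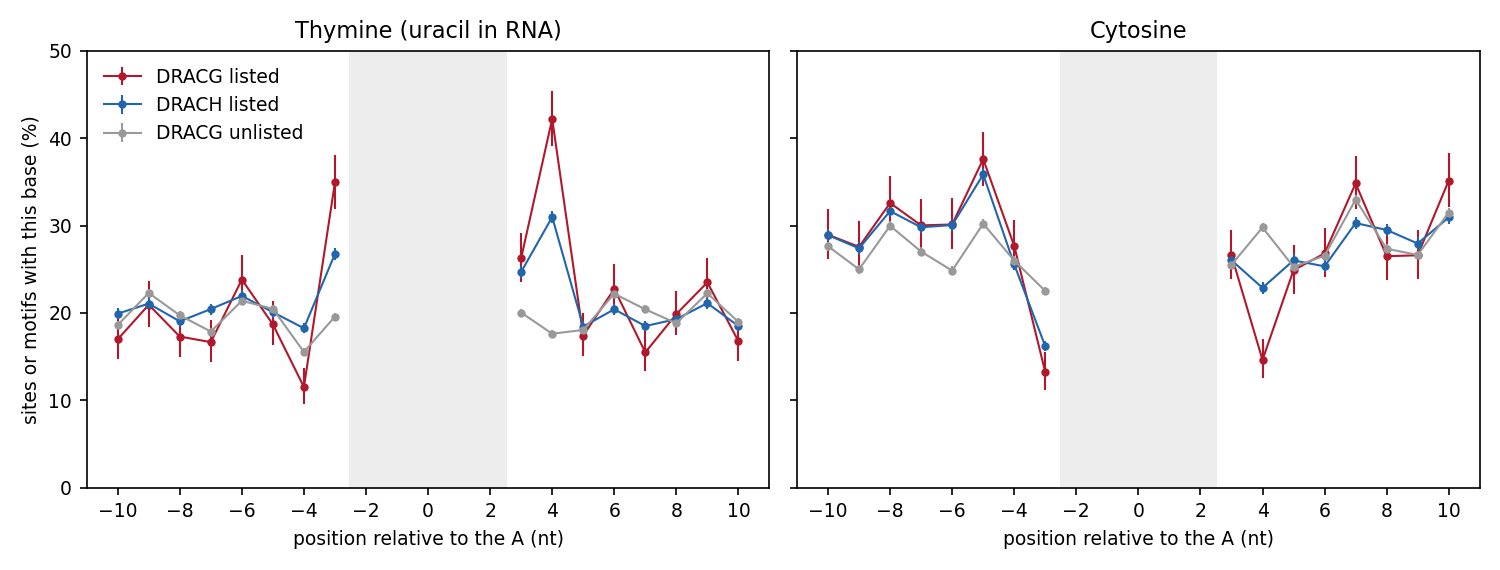
Percent of listed DRACG sites, listed DRACH sites and unlisted DRACG motifs with thymine (left) and cytosine (right) at each position from -10 to +10 around the A, with 95% Wilson intervals; the grey band covers the pentamer. Thymine at listed DRACG sites peaked at +4 with 42.2%, where unlisted DRACG motifs had 17.6%.

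The CpG surroundings of DRACG sites differed from those of DRACH sites. Leaving out the site's own CpG, DRACG sites had a median of 4 CpG in the 50 nt on either side (quartiles 2 and 7, highest 20), and 46 of 937 had none. DRACH sites had a median of 3. At least 4 other CpG, the median of all DRACG motifs, were present around 62.0% of DRACG sites and 39.8% of DRACH sites, with an odds ratio within transcripts of 1.68 (1.41 to 2.01, adjusted chi-square p = 1.5e-08). The motifs themselves showed a similar gap, since 55.95% of unlisted DRACG and 33.2% of unlisted DRACH motifs were CpG-dense. Listed against unlisted motifs gave odds ratios of 0.984 for DRACG and 0.987 for DRACH, which were not told apart (adjusted p = 0.976, n = 937 listed DRACG sites, 837 in informative transcripts). The comparison of sites with the region matched as well gave 1.26 (adjusted chi-square p = 0.0392), and without GGACG 1.24 (adjusted chi-square p = 0.334). Coding DRACG sites were CpG-dense in 75.05% and 3' UTR sites in 44.8%, against 58.7% and 24.2% of DRACH sites.

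Whether CpG density set listed DRACG motifs apart from unlisted ones depended on the setting. Overall the odds ratio was 0.984 (0.840 to 1.15, adjusted chi-square p = 0.873). It was 1.52 (adjusted chi-square p = 7.9e-05) when motifs were compared within a region of their transcript, and 0.728 (adjusted chi-square p = 0.00894) for GGACG alone. In 3' UTRs 44.8% of listed and 24.1% of unlisted DRACG motifs were CpG-dense. The shares were 75.05% and 64.4% in CDS, and 85.7% (12 of 14) and 80.1% in 5' UTRs. DRACH motifs ran the same way, at 24.2% and 11.8% in 3' UTRs, 58.7% and 48.9% in CDS and 66.7% and 59.7% in 5' UTRs. Counting G and C in place of CpG gave 2.15 (adjusted chi-square p = 1.5e-18), and listed DRACG motifs had a median GC content of 63.4% against 59.4% for unlisted ones. For DRACH motifs the medians were 59.4% and 54.5%. No DNA methylation was measured.

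DRACG sites had DRACH sites as neighbours. A DRACH site was listed in the same transcript for 910 of 937 members, at a median of 67.5 nt along the transcript (quartiles 31 and 144). From a DRACH site to the nearest other DRACH site the median was 65 nt, and from an unlisted DRACG motif to the nearest DRACH site it was 540 nt. Within 50 nt lay a DRACH site for 366 members (39.1%) and for 9.51% of unlisted DRACG motifs, with an odds ratio within transcripts of 3.91 (3.31 to 4.62, adjusted chi-square p = 1.2e-67). It was 2.60 when motifs were compared within a region of their transcript. The nearest DRACH site was downstream for 492 members and upstream for 418. For unlisted DRACG motifs it was downstream for 19438 and upstream for 10996. Of all 993 members 134 (13.5%, 11.5 to 15.8) had a DRACH motif, listed or not, fully inside their 21-nt window. The share of unlisted DRACG motifs with such a neighbour was not computed.

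**Figure D5:**
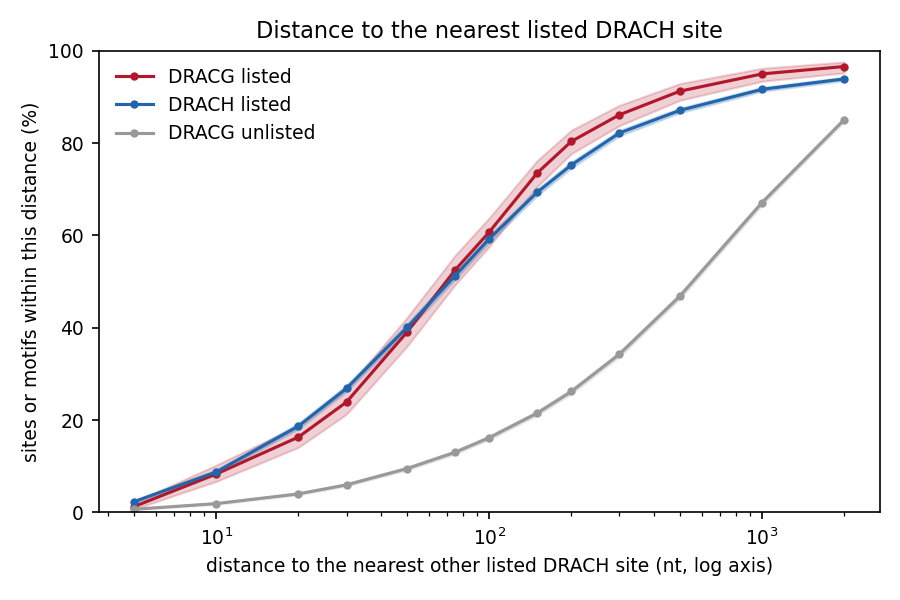
Cumulative percent of listed DRACG sites, listed DRACH sites and unlisted DRACG motifs with a listed DRACH site within a given distance along the transcript (nt, log axis), with 95% Wilson intervals as bands. The curves of both listed classes lay close together, at 39.1% and 40.1% within 50 nt, and unlisted motifs reached 9.51%.

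The score of the DRACG site was above that of its nearest DRACH site for 348 of the 910 members (38.2%, 35.1 to 41.4), and the median difference of DRACG minus DRACH was -0.0466. The closest pairs lay 4 nt apart, which is the shortest spacing these motifs allow. A listed DRACH site lay 4 nt downstream of 6 members, and not all of these pairs are shown. Those below have the DRACG pentamer in capitals.
ADGRG1, chr16:57663724-57663744, plus strand: gccatggtGGACGgactcccg
GMEB2, chr20:63590053-63590073, minus strand: ggcccctgGGACGgacagggc
ARF6, chr14:49894205-49894225, plus strand: acctcaggGGACGgactctat
UBE2L6, chr11:57552304-57552324, minus strand: ggcatagcGGACGgacacacc
PLEKHM2, chr1:15734267-15734287, plus strand: ccatctaaGGACGaacaaaag
In ADGRG1, an adhesion receptor gene, the DRACG site scored 0.863 and the DRACH site (GGACT) 0.894. In GMEB2, a DNA-binding factor gene, the values were 0.818 and 0.872 (GGACA), in ARF6, a small GTPase gene, 0.693 and 0.801 (GGACT), and in UBE2L6, a ubiquitin-like conjugating enzyme gene, 0.686 and 0.802 (GGACA). Among the pairs shown, PLEKHM2 was the pair in which DRACG scored higher, 0.842 against 0.732 for GAACA. The list gives no reads, so whether signal at paired sites came from the same molecules was not tested.

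DRACG sites were spread over many genes. Of 3851 host genes 737 had at least 1 (19.1%), of which 575 had 1 site, 105 had 2, 37 had 3 and 20 had at least 4. A DRACG site without any DRACH site was found in 26 of these 737 genes (3.53%). A DRACG site was the highest-scoring site of its gene in 98 of them (13.3%). The shares that the numbers of DRACG and DRACH sites per gene would give alone were not computed. Genes with a DRACG site had a median of 7 listed sites and the others 3. A gene with more listed sites has more chances to hold one at DRACG, so some gap is built into this comparison. The share of sites at DRACG was 3.00% in genes with 1 site, 4.57% in genes with 4 to 7 and 6.95% in genes with at least 16. TMEM160 and FAM32A were the 2 genes with several DRACG sites and no DRACH site. In TMEM160 both were coding, with scores of 0.585 and 0.555.

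PLEC, the gene of the cytoskeletal linker plectin, had the most members, with 12 DRACG sites among its 48 sites. Of these, 11 were coding and they scored from 0.576 to 0.836, and 12 of its 86 DRACG motifs (13.95%) were listed. FAM20C followed with 6, of which 4 lay in the 3' UTR and 2 in introns of the chosen transcript, with scores from 0.529 to 0.939. PLXNA1 had 6, from 0.601 to 0.862, and TOR4A 6, from 0.5003 to 0.828. HELZ2, a helicase gene, had 5 coding sites from 0.552 to 0.883. In TOR4A 6 of 17 DRACG motifs were listed (35.3%), and in NAGLU, a lysosomal enzyme gene chosen after its values were seen, 4 of 4. These genes were named for many DRACG sites or a high rate, and that choice favours rates above the 2.94% of all DRACG motifs. Listing rates of DRACH motifs in the same genes were not compared.

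Some DRACG sites stood side by side, and the pair in TOR4A shows it.
TOR4A, chr9:137279964-137279984, plus strand: gaggcgcaGGACGggacgttt
TOR4A, chr9:137279969-137279989, plus strand: gcaggacgGGACGtttgggtt
These sites lay 15 and 20 nt past the first base of the stop codon, 5 nt apart, and scored 0.783 and 0.828. The site with thymine at +4 was the higher of the pair. Only 8 members lay within 10 nt of another DRACG site in the same transcript, and 545 of 937 had none there.

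Among gene groups listed with earlier results of these data known, DRACG made up 13.3% of the 90 sites in cytoskeletal linker genes, all in PLEC. In DUSP, SPRY and SPRED genes, which restrain MAP kinase signalling, it was 12.3% of 57 sites. These 7 DRACG sites were held by 4 of 11 host genes, and SPRY4 held 4 of the 7. In plexin and semaphorin genes DRACG was 11.3% of 106, held by 5 of 9 host genes, and PLXNA1 held 6 of these 12 DRACG sites. It was 10.8% of 65 in forkhead factor genes, held by 5 of 8 host genes (FOXC2, FOXD1, FOXK1, FOXK2 and FOXM1). In AP-1 and EGR genes it was 9.43% of 53, held by 2 of 5 host genes (JUNB and JUND). It was 7.69% of 143 in heparan sulfate genes (5 of 11 host genes) and 6.92% of 130 in collagen and laminin genes (4 of 12), against 5.29% of the whole list. In the small groups it was 11.1% of 27 (ID, HES and BHLHE genes), 6.25% of 16 (m6A writers, readers and erasers) and 5.56% of 18 (SOX genes). It was 5.26% of 19 in KLF and SP genes, 3.70% of 54 in histone lysine methyltransferase and demethylase genes and 3.23% of 31 in CpG methylation genes. HOX genes had 0 of 18 and NOTCH genes 0 of 7, which are too few to set them apart. SPRY4, a receptor tyrosine kinase signalling inhibitor, had 4 DRACG sites from 0.616 to 0.906, GPC1, a glypican, 3 from 0.620 to 0.806, JUND 3 from 0.508 to 0.773, COL6A2, a collagen chain, 4 from 0.625 to 0.769, and EXT1, a heparan sulfate polymerase, 3 from 0.642 to 0.837. These shares carry no test.

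Of the genes that the study named, DDIT4, an inhibitor of mTOR signalling, had 1 DRACG site among 10 sites, and ABT1 1 among 6.
DDIT4, chr10:72274922-72274942, plus strand: gcgctgctGGACGtctgcgtg
ABT1, chr6:26598506-26598526, plus strand: ggccagggGGACGtgaacggg
The DDIT4 site was coding, 254 nt before the stop codon, and scored 0.698, with its nearest DRACH site 53 nt upstream at 0.904. The ABT1 site was coding, 127 nt before the stop codon, and scored 0.708, with a DRACH site 33 nt upstream at 0.915. RHOB, CCDC85B and MIF4GD had 10, 6 and 7 sites and 0 at DRACG, and HIC2 had 0 listed sites of any kind. The study named mouse Hic2 for a GGACG site in embryonic stem cells, where an antibody-independent assay, SELECT, found Mettl3-dependent methylation. The DDIT4 and ABT1 positions that it tested by SELECT in another human line were other adenosines, and the ABT1 one was not verified. Among the genes with the most sites of the list, H6PD, a hexose-6-phosphate dehydrogenase, had 3 DRACG sites of 45 (0.686 to 0.814) and NDST1 2 of 42 (0.612 and 0.919).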

How the data were processed

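miCLIP2 peaks of 3 replicates (4 libraries) of C643 cells were processed by the authors with STAR 2.7.3a, SAMtools 1.9, UMI-tools 1.0.0 and bedtools 2.27.1 (submitters' processing notes) on GRCh38.p12 with GENCODE 31, PureCLIP and m6Aboost. Peaks had to be present in at least 2 replicates. The deposited score is a fraction between 0 and 1, given by the authors' classifier to each site called modified, pooled over replicates. Rejected peaks, read counts and replicate values were not used here, so depth per site is unknown.

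Every site lay at an A of the reference (0 exceptions). Bases are those of the reference, and the genotype of the cell line was not examined. Each gene was represented by its longest transcript in GENCODE 44, taken among protein-coding transcripts for coding genes, of transcript support level 3 or better (or none given) and annotation level 2 or better, and 563 sites were exonic in more than 1 gene. Of the 993 members 938 were exonic, and 937 with DRACG in the spliced transcript entered the tests. A motif was any DRACN in those exons. Cochran-Mantel-Haenszel tests, two-sided, took the host transcript as stratum, with Robins-Breslow-Greenland intervals, and 22 planned tests were adjusted by Benjamini-Hochberg (threshold 0.05). Only transcripts in which both compared traits varied were informative, and counts and n cover all sites, informative or not, unless stated. Differences between odds ratios were tested on the log scale with adjustment over 8 such comparisons, and other odds ratios are given with their interval alone. Motifs of 1 transcript were treated as independent given the transcript. The test script was checked on simulated data. Members and gene lists were chosen with earlier results of these data known. Named sites follow a rule of highest and lowest scores, most sites per gene, closest pairs and listed gene groups. Windows on chromosome 8 are not shown. Alternatives changed the transcript (Ensembl canonical), score limit, windows, pentamers and strata. Sequences were read with pysam 0.24.0, statistics were computed in Python 3.11.15 with pandas 2.3.3, scipy 1.17.1 and numpy 2.4.6, and plots were drawn with matplotlib 3.10.9.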

Additional observations from a re-analysis of the deposited data

How the results depend on the processing

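Of 22 results 15 passed the threshold, and over 181 alternatives 148 kept direction and side of the threshold, 9 lost it, 6 gained it and 18 turned direction. The values below are odds ratios, and the causes were not tested. Without GGACG, 3' UTR against CDS was 0.823, CpG density against DRACH 1.24, G at -3 0.873, A at +3 0.889, the junction against DRACH 0.520, the stop codon against DRACH 1.04 and codon positions 1, 2 and 3 0.642, 1.16 and 1.27. With GGACG only, codon positions 1, 2 and 3 were 1.26, 0.775 and 1.21, listed against unlisted CpG density 0.728 and the stop codon against DRACH 1.002. At a score of at least 0.7 the junction against DRACH was 0.495, listed CpG density 0.729, A at +3 0.968 and the stop codon against DRACH 1.13. With the window changed, the junction was 0.606 (50 nt) and the stop codon 1.08 (400 nt). G and C content in place of CpG gave 2.15. Alternatives chosen after seeing the data followed. With the bases at -2 and -1 matched, the 5' UTR was 0.397, listed CpG density 0.734, A at -3 0.9999, G at -3 0.824, codon positions 1, 2 and 3 1.06, 0.895 and 1.14 and the stop codon against DRACH 1.004. With the region matched, listed CpG density was 1.52, A at +3 1.25 and A at -3 1.27. Without motifs within 20 nt of a listed DRACH site, listed CpG density was 1.04. Leaving out PLEC and the canonical transcript ended or turned none of the 22. The 5' UTR test could not be run at a score of at least 0.7, where no 5' UTR member was left. No paired analysis was possible because the samples form a single group and their calls are merged, and for that reason no replicate could be dropped. Depth per site is unknown, so an unlisted motif may be unmodified, rejected or too thinly covered, and these were not told apart.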
